A study of Homo sapiens with 4 samples.

Results

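The AP-1 and EGR immediate early factors examined here are 10 human genes, taken by symbol from a deposited table of 38558 genes. They are the FOS family genes FOS, FOSB, FOSL1 and FOSL2, the JUN family genes JUN, JUNB and JUND, and the EGR genes EGR1, EGR2 and EGR3. All 10 were found, each as a single entry. Their expression was measured by RNA sequencing in ES2 and SKOV3, established human ovarian cancer cell lines labelled as wild type. Cells of each line, kept in 5A medium with fetal bovine serum, were either controls or received YY-15, a code-named compound, for 48 h. A dose of 4 µM is written in column headings only, and the labels do not say what the controls, called untreated below, received. Every combination of line and treatment was a single library, 4 in all, with no word in the labels on how many cultures went into it. No difference below therefore has a replicate check, a test or a p-value.

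AP-1 is a dimer of basic leucine zipper proteins. FOS family proteins pair mainly with JUN family proteins rather than with each other, whereas JUN proteins can also pair with each other. The dimers bind a short palindrome-like DNA element. FOS, FOSB, JUN, JUNB and the EGR zinc finger genes are classical immediate early genes, transcribed within minutes of a growth factor or stress signal without new protein synthesis and usually shut off again soon after, while FOSL1, FOSL2 and JUND are expressed later or more steadily. MAP kinase signalling acts on this system through ternary complex factors such as ELK1, which sit with SRF on CArG boxes in immediate early promoters. In carcinoma cells FOSL1, also called FRA-1, is known as the FOS family member tied to sustained ERK signalling and to a mesenchymal, invasive state.

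The promoters of EGR1, EGR2 and JUN were chosen for display after their expression was seen. EGR1 and JUN went opposite ways in SKOV3, as described below, while EGR2 was hardly expressed in any library. Whether the marked elements bear on these levels was not tested. The sequences are from RefSeq on GRCh38.p14, read 5′ to 3′ on the gene's strand, and give the 250 bases before the annotated start. In EGR1 (chr5:138465229-138465478, plus strand) and EGR2 (chr10:62816367-62816616, minus strand, the third of 3 annotated EGR2 starts) the capitals mark CArG boxes, the binding element of SRF. In JUN (chr1:58784048-58784297, minus strand) the capitals mark the variant AP-1 element TGACATCA, the form known from the JUN promoter itself.
EGR1: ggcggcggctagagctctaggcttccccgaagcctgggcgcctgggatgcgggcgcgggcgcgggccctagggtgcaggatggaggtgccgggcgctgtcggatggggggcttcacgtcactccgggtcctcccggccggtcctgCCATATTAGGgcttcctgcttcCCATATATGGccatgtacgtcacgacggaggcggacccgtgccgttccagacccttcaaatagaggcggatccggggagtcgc
EGR2: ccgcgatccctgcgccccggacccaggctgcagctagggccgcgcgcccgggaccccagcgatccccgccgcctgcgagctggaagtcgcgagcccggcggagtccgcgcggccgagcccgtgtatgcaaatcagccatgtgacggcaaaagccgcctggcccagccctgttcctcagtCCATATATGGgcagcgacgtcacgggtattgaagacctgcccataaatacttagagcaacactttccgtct
JUN: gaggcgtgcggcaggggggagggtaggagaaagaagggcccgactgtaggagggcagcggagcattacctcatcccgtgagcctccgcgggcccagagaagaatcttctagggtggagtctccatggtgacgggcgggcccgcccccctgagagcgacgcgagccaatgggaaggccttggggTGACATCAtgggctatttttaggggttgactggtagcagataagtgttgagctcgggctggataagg

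Promoter windows running from 250 bases before to 50 bases after the start were listed for 8 of the 10 genes, in 10 windows. FOSL1 and EGR3 had no window. Both strands were searched. EGR1 held 2 CArG boxes, at 105 to 96 and 83 to 74 bases before the start, and the third EGR2 window held 1, at 71 to 62 bases before it. A CArG box was present in 1.29% of all 35116 windows of this length. The JUN element lay 67 to 60 bases before the start, and 2.61% of all windows held those letters. The AP-1 element TGANTCA was matched in FOSL2 alone among the 8 genes, 5 to 11 bases after its start, against 7.71% of all windows. The cAMP response element TGACGTCA was matched in JUND, 200 to 193 bases before the start, against 1.85% of windows. The EGR element GCGNGGGCG was matched in EGR1, 198 to 190 bases before the start, and in the second EGR2 window, against 9.43% of windows. The extended ETS consensus CCGGAAGT was in none of the 10 windows and in 4.14% of all. Shorter or variant ETS sites were not searched, so their absence cannot be inferred. FOS, FOSB and JUNB had no match to any of these elements within the window. Sequence further from the start was not searched, so sites there would be missed. A match describes letters only and is not evidence of binding.

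**Figure D1:**
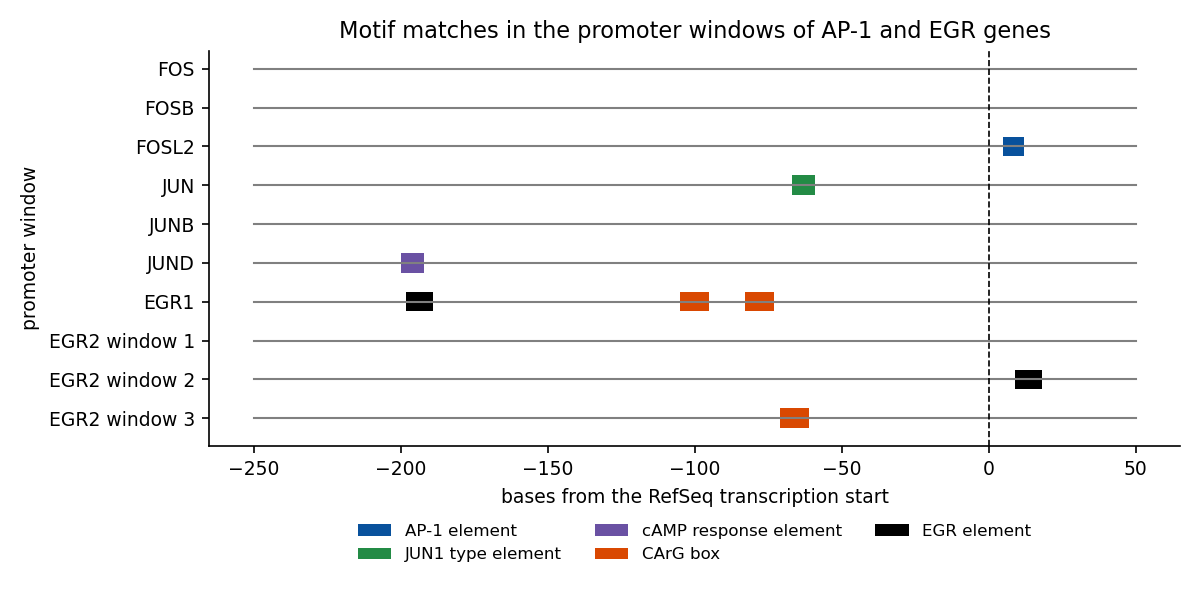
Motif matches in the 10 RefSeq promoter windows of 8 AP-1 and EGR genes. The horizontal axis gives bases from the annotated transcription start (dashed line), each grey line is a window, and boxes are matches on either strand; EGR1 carries 2 CArG boxes and EGR2 carries 1.

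The libraries held between 62522202 and 67431058 estimated counts. Levels are in FPKM, which counts fragments relative to transcript length and library size, so that genes of different length can be set side by side. A log2 ratio below is the difference of log2(FPKM + 1) between a pair of libraries, taken for genes that reached an FPKM of 1 in either library. The added 1 understates differences of weakly expressed genes. Brackets hold the exact 95% interval of a gene's count share in one library over its share in the other, on the log2 scale and with nothing added, so it need not hold the ratio printed before it. These intervals reflect counting error alone, not the spread between cultures. SKOV3 carried its known ERBB2 expression (152 FPKM in the control) and PAX8 (37.5 FPKM), and both were under 0.2 FPKM in ES2 control. Of 6 ovarian carcinoma markers, these were among 3 at 1 FPKM or more in SKOV3 control. MUC16 (0.0103 FPKM), WT1 (0.255 FPKM) and MSLN (0.476 FPKM) were under it there. In ES2 control EPCAM and CDH1 were listed at 0 although KRT7 (101 FPKM) and KRT18 (112 FPKM) were present. The 4 leukocyte markers found in the table did not exceed 0.154 FPKM in any library. Of the 4 endothelial markers, CDH5 stood at 19.5 FPKM in ES2 control. The others were low there, with PECAM1 at 0.0417, VWF at 0.0278 and KDR at 0.416 FPKM. The summed FPKM of 8 epithelial markers was 527 in control and 354 in treated SKOV3, with 5 and 6 of them at 1 or more, and in ES2 it was 227 and 233. Within that list KRT8 was at 247 against 116 FPKM in SKOV3, while EPCAM, CDH1 and CLDN4 were higher in the YY-15 library, none above 2.29 FPKM. The sum of 6 mesenchymal markers was 984 and 1133 FPKM in SKOV3, and 1380 and 1351 FPKM in ES2. In SKOV3 FN1 was at 170 against 342 FPKM, while VIM, most of the sum, was at 782 against 754 FPKM. ZEB1 was at 5.38 against 8.67 FPKM in SKOV3 but at 9.70 against 4.77 FPKM in ES2. With YY-15, 4 of 5 mesenchymal markers measured in SKOV3 had a log2 ratio above 0, and 2 of 6 in ES2. Of all genes compared, 52.7% and 45.7% did. The part of these differences in the results below was not tested. In bulk RNA, fewer expressing cells and less RNA per cell cannot be told apart.

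The makeup of AP-1 messenger RNA differed between the lines before any treatment. ES2 was dominated by FOSL1 and JUN, whereas SKOV3 held FOSL2, JUNB, JUND and JUN at similar levels with less FOSL1. The 6 genes FOSL1, FOSL2, JUN, JUNB, JUND and EGR1 had an FPKM of 1 or more in every library, and the other 4, FOS, FOSB, EGR2 and EGR3, were under 1 in every library, between 0.0217 and 0.801 FPKM. In ES2 control the order was FOSL1, JUN, FOSL2, EGR1, JUNB and JUND. In SKOV3 control it was JUNB, JUN, FOSL2, JUND, FOSL1 and EGR1. Without replicates, neighbours in these orders cannot be told apart from the spread between cultures.

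**Figure D2:**
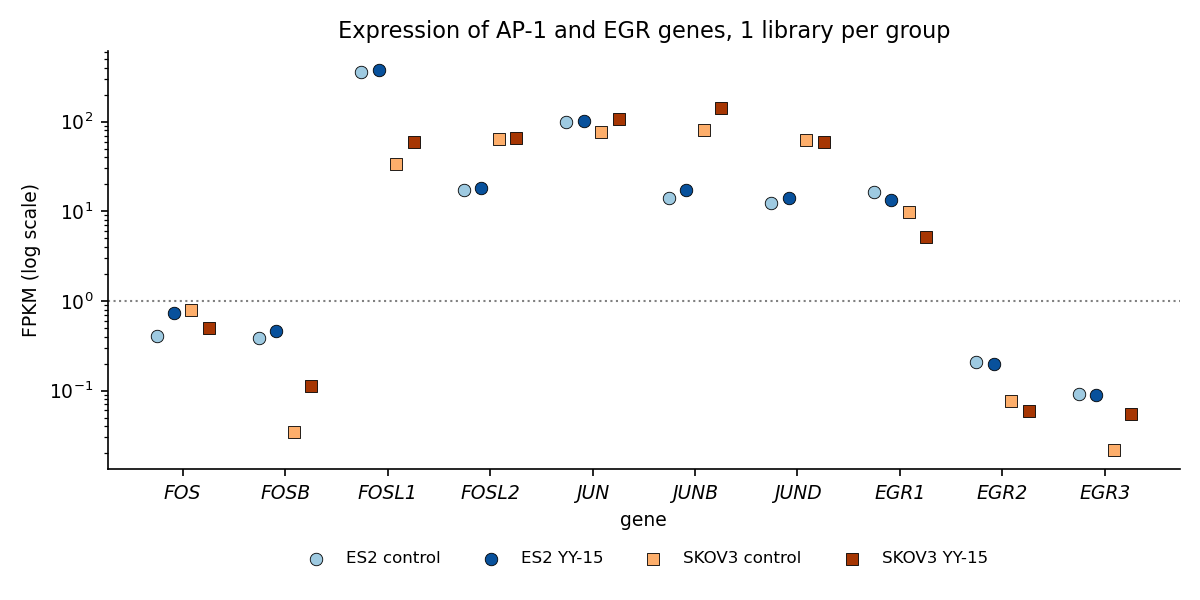
FPKM (log axis) of the 10 genes in the 4 libraries, 1 point per library, circles for ES2 and squares for SKOV3; the dotted line marks an FPKM of 1. FOSL1 lies highest in ES2 (354 and 379 FPKM), JUNB highest in treated SKOV3 (141 FPKM), and FOS, FOSB, EGR2 and EGR3 lie under the line.

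FOSL1 (ENSG00000175592, chromosome 11, 65892049 to 65900419, minus strand, GRCh38) was at 354 FPKM in control and 379 FPKM in treated ES2, and at 33.5 FPKM in control and 59.4 FPKM in treated SKOV3. In the paragraphs that follow, 4 values in a row keep this order. Both ES2 libraries stood far above both SKOV3 libraries, and the untreated lines differed 10.6-fold in FPKM, a log2 ratio of -3.36 [-3.45 to -3.36] for SKOV3 against ES2. In SKOV3 the YY-15 library was 1.78-fold higher than its control, a log2 ratio of 0.81 [0.78 to 0.89]. Of the genes compared in SKOV3, 13294 in all, 3.03% had a higher ratio. The ES2 ratio was 0.10 [0.08 to 0.12], and it ranged from -0.01 to 0.12 over the alternative settings, so its sign depends on them. The gene most like FOSL1 in its pattern over the 4 libraries, after each gene's mean log2 level was subtracted, was the ribosomal protein paralogue RPL22L1 (distance 0.09 on the log2 scale, among 8099 genes), at 44.3, 43.9, 3.12 and 6.28 FPKM. METTL27 (distance 0.17) and SOX9 (0.24), the latter a developmental transcription factor gene, came next.

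FOSL2 (ENSG00000075426, chromosome 2, 28392448 to 28417312, plus strand), which encodes FRA-2, was at 17.1, 18.3, 64.6 and 65.1 FPKM. It was the reverse of FOSL1 between the lines, with SKOV3 control 3.78-fold above ES2 control (log2 ratio 1.86 [1.88 to 1.95]). Within a line it hardly differed with treatment, with log2 ratios of 0.09 [0.06 to 0.14] in ES2 and 0.01 [-0.00 to 0.04] in SKOV3. An unnamed gene overlaps FOSL2 on the same strand, with at most 19 estimated counts in a library, and FOSL2-AS1 overlaps it on the other strand with at most 38.

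FOS (ENSG00000170345, chromosome 14, 75278826 to 75282230, plus strand), the founding member of the family, was at 0.410 and 0.735 FPKM in the ES2 libraries and at 0.801 and 0.499 FPKM in the SKOV3 libraries. It was higher with YY-15 in ES2 and lower with YY-15 in SKOV3, on 91, 170, 185 and 108 estimated counts. FOSB (ENSG00000125740, chromosome 19, 45467995 to 45475179, plus strand), a close relative of FOS, was at 0.390, 0.466, 0.0342 and 0.112 FPKM. Its SKOV3 values rest on 15 and 42 estimated counts. ERCC1 overlaps FOSB on the opposite strand at 11.5 to 13.8 FPKM, and no source used here says if counting was strand-specific, so FOSB is uncertain.

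JUN (ENSG00000177606, chromosome 1, 58776845 to 58784048, minus strand), the principal partner in most AP-1 dimers, was at 99.8 and 100.5 FPKM in the ES2 libraries and at 75.8 and 106.6 FPKM in the SKOV3 libraries. SKOV3 control was the lowest of the 4, and the other 3 lay close together. The SKOV3 log2 ratio was 0.49 [0.47 to 0.52], 1.41-fold in FPKM, with 9.67% of genes higher. In ES2 the ratio was 0.01 [-0.02 to 0.04], within counting error. The genes most like JUN over the 4 libraries were SELENOH (distance 0.03), EAF1 (0.05) and SRC (0.05), the last encoding a tyrosine kinase.

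JUNB (ENSG00000171223, chromosome 19, 12791486 to 12793315, plus strand), a JUN relative that activates weakly at many AP-1 sites, was at 14.2 and 17.4 FPKM in the ES2 libraries and at 81.1 and 141 FPKM in the SKOV3 libraries. Both SKOV3 libraries exceeded both ES2 libraries, by 5.72-fold between the controls (log2 ratio 2.44 [2.44 to 2.59]). The treated library was the higher in each line, with log2 ratios of 0.79 [0.77 to 0.84] in SKOV3 and 0.28 [0.20 to 0.39] in ES2. In SKOV3 3.29% of genes had a higher ratio than JUNB, and in ES2 5.62% did. After a correction for GC content and transcript length the JUNB log2 ratio was 0.72 in SKOV3 and 0.16 in ES2, so its size depends on the processing. HOOK2 overlaps JUNB on the opposite strand, at 9.03 and 9.09 FPKM in SKOV3 control and YY-15 and at 2.39 and 2.23 FPKM in ES2.

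JUND (ENSG00000130522, chromosome 19, 18279694 to 18281622, minus strand), the JUN gene usually expressed steadily in resting cells, was at 12.5, 14.04, 61.6 and 59.5 FPKM. It followed JUNB between the lines, with SKOV3 control 4.94-fold above ES2 control (log2 ratio 2.22 [2.23 to 2.38]), but not with treatment in SKOV3. There its log2 ratio was -0.05 [-0.09 to -0.00], against 0.16 [0.07 to 0.26] in ES2. After the correction for GC content and transcript length the ES2 ratio was 0.02, and after rescaling to a sum of 1000000 per library the SKOV3 ratio was -0.00, so the size of each depends on the processing.

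Between the untreated lines, JUNB and JUND were at least 4-fold higher in SKOV3, the size used between lines, and FOSL1 at least 4-fold lower. These are 2 and 1 of the 6 measured genes, where 4.81% and 3.25% of all 14024 genes compared were that much higher and lower. FOSL2 was just under that size and JUND just over it. JUND was under it when 5 was added to FPKM in place of 1 (1.93) and after a correction for GC content and transcript length (1.88), and FOSL2 passed it after rescaling to a sum of 1000000 per library (2.01).

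Summed over its 4 genes, FOS family FPKM was 372, 398, 98.9 and 125. FOSL1 made up 95.2% and 95.1% of that sum in the ES2 libraries, 33.8% in control SKOV3 and 47.5% in treated SKOV3, and nearly all the rest was FOSL2. The JUN family sum was 126, 132, 219 and 307 FPKM. JUN made up 78.9% of it in ES2 control but 34.7% in both SKOV3 libraries. The JUNB share was 37.1% in control SKOV3 and 45.9% in treated SKOV3, while that of JUND was 28.2% and 19.4%. The sums describe messenger RNA, and say nothing of which proteins paired.

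**Figure D3:**
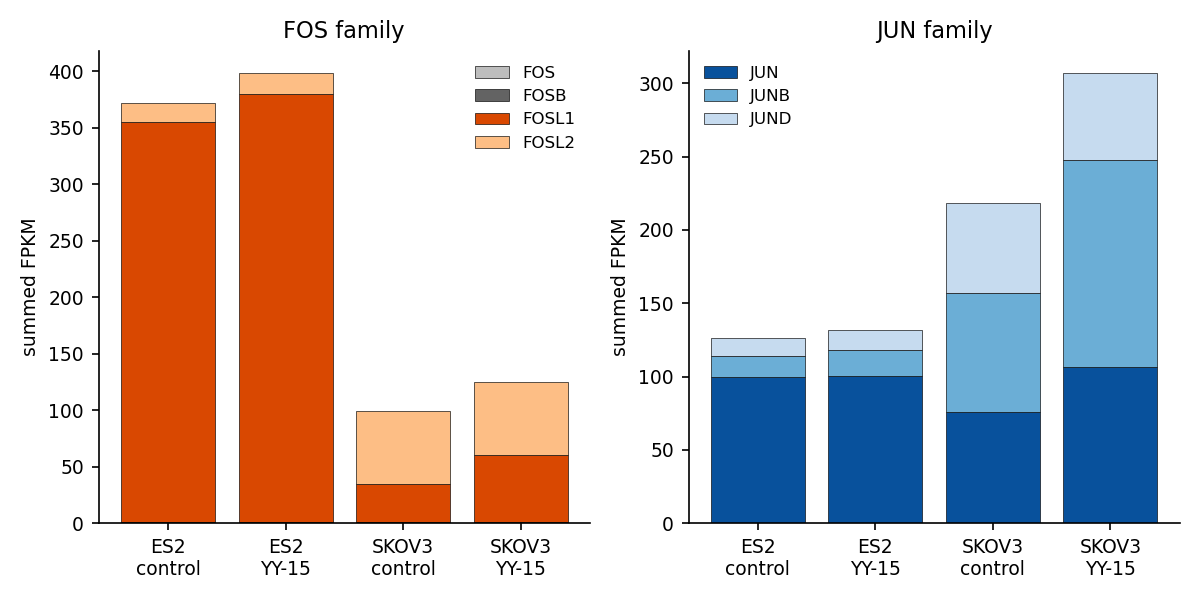
Summed FPKM of the FOS family (left) and the JUN family (right) in the 4 libraries, with 1 library per bar and a coloured segment for each gene. FOSL1 fills 95.2% of the ES2 control bar and 33.8% of the SKOV3 control bar, and JUNB grows from 81.1 to 141 FPKM between the SKOV3 bars.

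EGR1 (ENSG00000120738, chromosome 5, 138465479 to 138469303, plus strand), a zinc finger factor that binds GC-rich promoters and induces its own co-repressor gene NAB2, went the other way from FOSL1 and JUNB in SKOV3. It was at 16.3 and 13.5 FPKM in the ES2 libraries and at 9.84 and 5.22 FPKM in the SKOV3 libraries. The YY-15 library was the lower in each line, and SKOV3 YY-15 was the lowest of the 4. In SKOV3 the log2 ratio was -0.80 [-1.02 to -0.80], with the control 1.89-fold above the YY-15 library, and 2.58% of genes had a lower ratio. In ES2 it was -0.25 [-0.34 to -0.20], with 15.1% of genes lower. The genes most like EGR1 over the 4 libraries were LXN (distance 0.08), encoding the protease inhibitor latexin, HSPH1 (0.09), a heat shock protein gene, and RFC3 (0.10), a clamp loader subunit gene of DNA replication.

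EGR2 (ENSG00000122877, chromosome 10, 62811996 to 62818659, minus strand), known for its role in peripheral nerve myelination, was at 0.208, 0.196, 0.0775 and 0.0595 FPKM. EGR3 (ENSG00000179388, chromosome 8, 22687659 to 22693480, minus strand), a related factor induced in activated lymphocytes and neurons, was at 0.0926, 0.0885, 0.0217 and 0.0549 FPKM. Both were higher in the ES2 libraries than in the SKOV3 libraries. An unnamed gene overlaps EGR3 on the opposite strand with 48, 11, 5 and 16 estimated counts, beside 32, 32, 8 and 19 for EGR3 itself, so EGR3 is uncertain as FOSB is. No EGR2 count exceeded 54 and no EGR3 count exceeded 32, and the interval of each treatment ratio spanned 0 except that of EGR3 in SKOV3 [0.10 to 2.76], which rests on 8 and 19 counts.

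**Figure D4:**
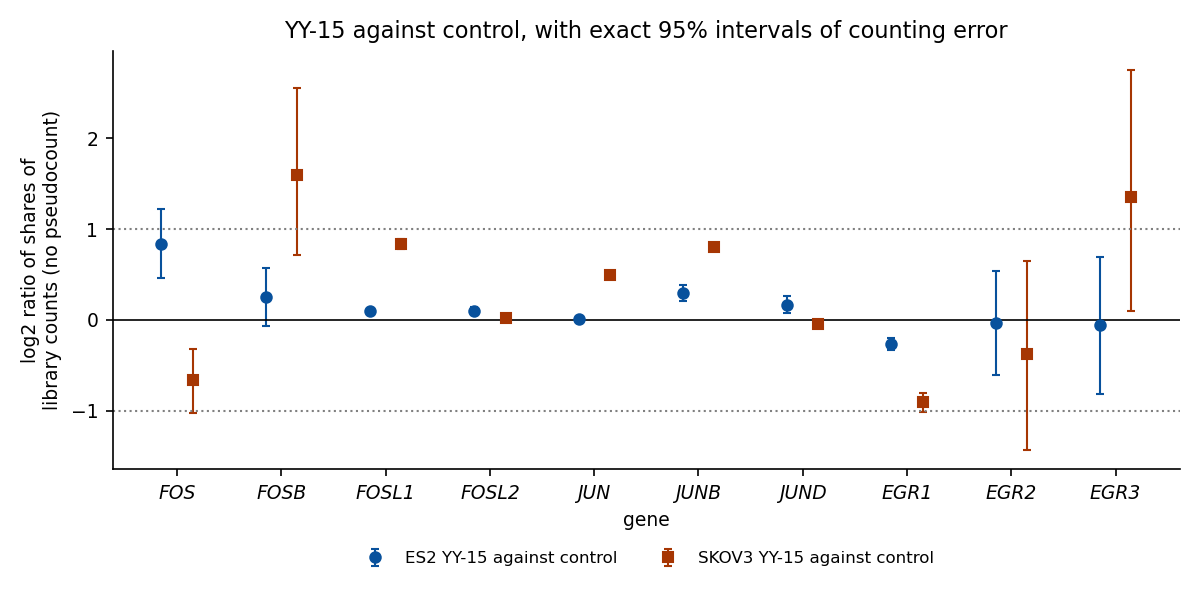
Log2 ratio of each gene's share of library counts, YY-15 against control, without a pseudocount, for ES2 (circles) and SKOV3 (squares); bars are exact 95% intervals of counting error and dotted lines mark a 2-fold difference. FOSL1, JUN and JUNB lie above 0 and EGR1 below it in SKOV3, and the wide bars of FOSB, EGR2 and EGR3 reflect counts as low as 8.

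Set against all genes, none of the 6 measured AP-1 and EGR genes reached a 2-fold log2 ratio in either line. In SKOV3 1.66% of the 13294 genes compared were higher by 2-fold or more and 1.31% lower by as much, and in ES2 0.348% and 0.486% of 12341 were. At 1.5-fold, FOSL1 and JUNB were higher and EGR1 lower in SKOV3, where 6.89% of all genes were that much higher and 5.69% that much lower. In ES2 no member reached 1.5-fold in either direction, where 1.0% of genes were higher and 2.19% lower by that size. Over the 6 genes the log2 ratio had its median at 0.25 in SKOV3 and 0.10 in ES2, beside 0.02 and -0.02 over all genes.

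The SKOV3 log2 ratio minus the ES2 log2 ratio was 0.71 for FOSL1, 0.51 for JUNB and 0.48 for JUN. It was -0.55 for EGR1, -0.21 for JUND and -0.08 for FOSL2. FOSL1 alone differed by 1.5-fold or more, in the direction where 10.3% of all 14607 genes did, and none of the 6 did so in the other direction, where 6.68% of genes did. Whether the lines differ in their response was not tested, since a single library per group leaves no residual degrees of freedom.

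Among 14 other proteins that can enter AP-1 dimers, the SKOV3 YY-15 library was the higher for every one measured, while the ES2 ratios lay on both sides of 0. All 10 measured in SKOV3 had a log2 ratio above 0, 3 of them at least 2-fold, with a median of 0.80; in ES2 4 of 8 were above 0 and none reached 2-fold, with a median of 0.00. For these and the lists below, 52.7% of all genes compared were above 0 in SKOV3 and 45.7% in ES2. At least 2-fold higher were 1.66% of all genes in SKOV3 and 0.348% in ES2. With 5 added to FPKM in place of 1, the SKOV3 median of the dimer partners was 0.47. ATF3, a stress-induced repressor that pairs with JUN, was at 0.365 and 0.413 FPKM in ES2 control and YY-15 and at 0.844 and 6.87 FPKM in SKOV3 control and YY-15, a log2 ratio of 2.09 [2.83 to 3.22] in SKOV3; it passed the filter there through the YY-15 library alone. MAFF, a small MAF protein, was at 2.88 against 10.6 FPKM in SKOV3 (1.58 [1.79 to 1.98]) and at 8.96 against 9.36 FPKM in ES2. ATF4, the amino acid stress regulator, was at 84.3 against 190 FPKM in SKOV3 (1.16 [1.15 to 1.20]), and MAFG, another small MAF, was at 15.1 against 27.8 FPKM (0.84 [0.84 to 0.93]).

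In SKOV3 the EGR1 co-repressor genes did not follow EGR1. NAB2 was at 9.91, 10.6, 9.95 and 12.8 FPKM, a log2 ratio of 0.33 [0.28 to 0.45] in SKOV3 where EGR1 itself was lower. NAB1 was at 8.91, 8.32, 19.4 and 20.9 FPKM, and in ES2 its log2 ratio of -0.09 [-0.17 to -0.02] had the sign of that of EGR1. EGR4 and WT1, a zinc finger factor with a related binding site, were under 1 FPKM in every library.

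Of 11 genes that EGR1 is known to activate, all had a log2 ratio above 0 in SKOV3, with a median of 0.50. At least 2-fold higher were 5 of the 11, beside 1.66% of all genes compared. Over the genes of this list at an FPKM of 5 or more the median was 1.05. The stress cytokine gene GDF15 was at 0.738 FPKM in control and 24.8 FPKM in treated SKOV3, and it passed the filter through the YY-15 library alone. The adhesion receptor gene ICAM1 was at 1.33 against 5.80 FPKM (1.55 [1.95 to 2.31]), the angiogenic factor gene VEGFA at 20.9 against 57.5 FPKM (1.42 [1.44 to 1.49]) and the growth factor gene FGF2 at 24.4 against 53.0 FPKM (1.09 [1.09 to 1.16]). All of these genes also answer to other factors. In ES2 6 of 10 were above 0, with a median of 0.05 and none at 2-fold.

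Known AP-1 target genes differed strongly between the untreated lines. Of 14 measured, 10 were lower in SKOV3 control than in ES2 control, 4 of them at least 4-fold, and 3 were at least 4-fold higher. Over all genes, 3.25% were that much lower and 4.81% that much higher. The median log2 ratio of the targets was -1.22 (-0.99 with 5 added to FPKM), beside 0.07 over all genes, of which 53.2% were above 0. All 3 that were higher (IL6, ADM and GJA1) passed the filter through the SKOV3 library alone, as SPP1 did, and MMP3, 1 of the 4 that were lower, passed through the ES2 library alone, so their directions were fixed by the filter. MMP1, the interstitial collagenase gene, was at 4022 and 4584 FPKM in the ES2 libraries and at 58.5 and 151 FPKM in the SKOV3 libraries. HMGA1, encoding a chromatin architectural protein, was at 1603, 1673, 146 and 338 FPKM. Like FOSL1, both were highest in ES2 and higher in SKOV3 YY-15 than in SKOV3 control. The interleukin gene IL6 was instead near 0 in ES2 (0.0504 and 0.0930 FPKM) and at 3.43 against 31.3 FPKM in SKOV3 control and YY-15. CXCL8, a neutrophil chemokine gene, was at 103 and 99.5 FPKM in ES2 and at 35.4 against 243 FPKM in SKOV3. In SKOV3 12 of 14 had a log2 ratio above 0 and 4 were at least 2-fold higher, with a median of 0.52. MMP10, a stromelysin gene counted among the 12, passed the filter through the YY-15 library alone, at 0.961 against 1.45 FPKM. In ES2 8 of 10 were above 0 and none was at 2-fold, with a median of 0.13.

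Genes used as a readout of MAP kinase pathway output were likewise lower in SKOV3 before treatment. All 10 were lower in SKOV3 control than in ES2 control, 5 of them at least 4-fold. The log2 ratios had their median at -2.05 (-1.37 with 5 added to FPKM). Of all genes compared between these libraries, 53.2% were above 0 and 3.25% were at least 4-fold lower in SKOV3 control. SPRY4 passed the filter in that comparison through ES2 alone. In SKOV3 9 of 10 were higher in the YY-15 library, 6 of them at least 2-fold, with a median of 1.14 (0.70 with 5 added to FPKM), while in ES2 5 were above 0 and 5 below, with a median of -0.01. PHLDA1, an apoptosis regulator gene, was at 60.2, 62.9, 44.2 and 206 FPKM. DUSP6, an ERK phosphatase gene, was at 53.7, 52.1, 1.83 and 7.28 FPKM, and the ETS factor gene ETV5 was at 18.6, 19.97, 3.18 and 12.5 FPKM. The signalling inhibitor gene SPRY4 was at 14.01, 11.98, 0.547 and 2.68 FPKM, passing the filter in SKOV3 through the YY-15 library alone. Even in the YY-15 library DUSP6, ETV5 and SPRY4 stayed below their ES2 levels in SKOV3. The exception in SKOV3 was the ephrin receptor gene EPHA4, named after its value was seen, at 4.61 against 1.98 FPKM (-0.92 [-1.32 to -1.11]).

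**Figure D5:**
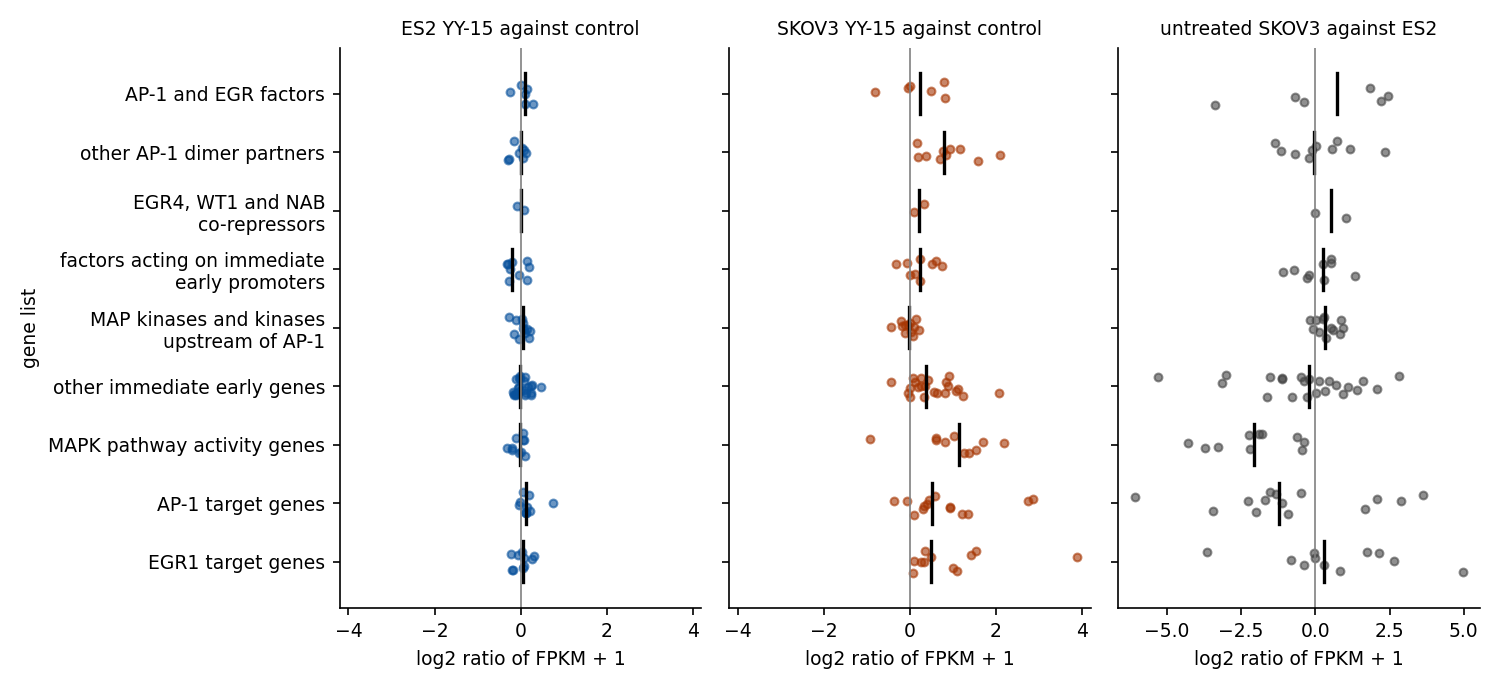
Log2 ratios of FPKM + 1 for the measured genes of each list (points) with the list median (black line), for ES2 YY-15 against control, SKOV3 YY-15 against control, and untreated SKOV3 against ES2; the third panel has a wider axis. In SKOV3 the median is 1.14 for MAPK pathway activity genes and 0.80 for other AP-1 dimer partners, and in ES2 the corresponding medians are -0.01 and 0.00.

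The kinases upstream of AP-1 showed small differences, none of them 1.5-fold in either line. Of 12 MAP kinases and kinases acting on AP-1, 6 were above 0 and 6 below in SKOV3, with log2 ratios from -0.44 to 0.21, and in ES2 8 were above 0, from -0.28 to 0.21. RPS6KA1, an ERK-activated kinase gene, was at 18.0 against 15.5 FPKM in SKOV3 control and YY-15 (-0.20 [-0.26 to -0.16]) and at 8.95 against 10.4 FPKM in ES2. MAPK8, encoding the JUN kinase JNK1, was at 7.01 against 8.26 FPKM in SKOV3 (0.21 [0.19 to 0.30]) and at 5.59 against 5.14 FPKM in ES2. MAP2K2, an ERK-activating kinase gene, had log2 ratios of 0.10 in SKOV3 and 0.21 in ES2, and RPS6KA3 had 0.01 and -0.28.

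Among 9 transcription factors that act on immediate early promoters, none reached 2-fold in either line, and 2, MEF2D and MEF2A, were at least 1.5-fold higher in SKOV3. In SKOV3 7 were above 0, with a median of 0.23, and in ES2 3 were, with a median of -0.19. That ES2 median was -0.02 when the filter was raised to an FPKM of 5, and -0.08 once GC content and transcript length were corrected for. The MADS-box factor gene MEF2D was at 6.62 against 11.9 FPKM in SKOV3 control and YY-15 (0.76 [0.78 to 0.91]) and MEF2A at 7.59 against 12.1 FPKM (0.60 [0.61 to 0.73]). Of the ternary complex factor genes, ELK3 was at 27.5 against 39.9 FPKM (0.52 [0.50 to 0.58]) and ELK4 at 6.44 against 7.72 FPKM. In ES2 ELK4 had a log2 ratio of -0.32 and ELK3 of -0.19. SRF was at 17.2, 19.3, 13.9 and 16.6 FPKM.

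Other immediate early genes were mostly higher in SKOV3 YY-15 but, like FOS and EGR1, not uniformly. In SKOV3 19 of 22 measured were above 0 and 4 at least 2-fold higher, with a median of 0.38. Those below 0 were RHOB, at 57.1 against 41.8 FPKM in control and YY-15 (-0.44 [-0.49 to -0.40]), SGK1 (-0.03) and IER5 (-0.01). In ES2 11 of 23 were above 0, none at 2-fold, with a median of -0.00. KLF4, a Krueppel-like factor gene, was at 1.78 against 10.6 FPKM in SKOV3 control and YY-15 (2.06 [2.43 to 2.72]). MYC, the growth regulator, was at 13.7 against 33.5 FPKM (1.23 [1.25 to 1.34]), and KLF10 was at 16.9 against 38.2 FPKM (1.13 [1.13 to 1.23]). DUSP1, a MAP kinase phosphatase gene, was the member of this list with the highest ratio in ES2, at 46.2 against 64.1 FPKM (0.46 [0.42 to 0.52]), and in SKOV3 it was at 26.4 against 56.6 FPKM (1.07 [1.05 to 1.16]). The NR4A1, NR4A2, NR4A3 and ARC genes, co-induced with FOS and EGR1 in many cells, lay between 0 and 1.15 FPKM in all libraries.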

How the data were processed

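Poly(A)-selected RNA of ES2 and SKOV3 cells was sequenced from both ends in 4 libraries, 1 per group. Libraries were made with dUTP, per the labels' protocols. The submitters' processing notes list HISAT2 2.2.1 and StringTie 2.1.6, besides cutadapt 1.9, edgeR and DESeq2, without saying what each did. They also list the mouse build mm10, but the 38558 identifiers are human: 35576 occur in GENCODE 29, and 99.9% of these lie over the same gene there, which places the coordinates on GRCh38. The authors deposited FPKM and counts per gene, as the headings name them. The deposited counts are whole but are treated as estimated counts, because over 200 genes per library pair a count of 1 with an FPKM too low for a read. Samples were matched to columns by line and by control or dose, and all 8 value columns were used.

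Log2 ratios used a pseudocount of 1 and genes reaching an FPKM of 1 in either library. The sizes were 2-fold (also 1.5-fold) with treatment and 4-fold between lines. No model was fitted. Intervals are exact Clopper-Pearson at 95%, on counts and library totals; PCR copies are not separate molecules. The members and the lists were chosen with earlier results of these data known. The text names all members, up to 4 genes per further list by mean absolute log2 ratio at an FPKM of 5 or more, and the 3 genes most like FOSL1, JUN and EGR1 by Euclidean distance; other list genes and markers (among them EPHA4, ADM, GJA1, SPP1, MMP3, MMP10, KRT8, FN1, SRF, EGR4, WT1, NR4A1, NR4A2, NR4A3 and ARC) were named after their values were seen. Calculations were tested on simulated counts, using Python 3.11.15, numpy 2.4.6, pandas 2.3.3, scipy 1.17.1 and statsmodels 0.14.6. Alternatives were pseudocounts of 0.1 and 5, no filter, an FPKM filter of 5, FPKM rescaled to a sum of 1000000, median centring, counts scaled to 1000000 per library, other sizes, and a correction for GC content and transcript length (local regression, span 0.3; both known for 96.7% to 97.3% of genes).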

Additional observations from a re-analysis of the deposited data

Results flagged for a closer look

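For FOS and JUND, YY-15 against control differed in opposite directions in the 2 lines, with both counting intervals leaving out 0. The share of all genes that did so was not counted, so the flag does not set these genes apart. With 1 library per group the difference itself was not tested. For FOS, the log2 ratio of count shares was 0.84 [0.46 to 1.22] in ES2 and -0.67 [-1.02 to -0.32] in SKOV3, a difference of -1.51, on 91, 170, 185 and 108 estimated counts and under 1 FPKM in every library. For JUND it was 0.17 [0.07 to 0.26] in ES2 and -0.05 [-0.09 to -0.00] in SKOV3, a difference of -0.214. The log2 ratio of JUND ranged from 0.02 to 0.18 in ES2 and from -0.16 to -0.00 in SKOV3 over the alternative settings.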

How the results depend on the processing

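No paired analysis was possible because each group held 1 library and the labels number no replicates. For the AP-1 and EGR genes, the count past 2-fold stayed 0 in each line under every alternative but a 1.5-fold size, which gave 3 in SKOV3. For the difference between the lines' ratios, 1 gene passed at 1.5-fold (FOSL1) and 1 with counts scaled to 1000000 per library, where FOS entered the filter. No called ratio of a member changed sign. In SKOV3 the log2 ratio ranged from 0.74 to 0.87 for FOSL1, 0.72 to 0.84 for JUNB, 0.46 to 0.54 for JUN and -0.90 to -0.54 for EGR1 over the alternatives; FOSL2 crossed 0, from -0.01 to 0.06, as JUN (-0.04 to 0.03) and FOSL1 (-0.01 to 0.12) did in ES2, and FOSL2 in the difference between lines (-0.11 to 0.01). Scaled counts ignore length, and they put the FOSL1 share of the FOS family sum at 11.9% in control and 19.3% in treated SKOV3. The SKOV3 medians of the lists kept their sign, except for the kinases, but some changed in size: with a pseudocount of 5 from 0.80 to 0.47 for the dimer partners and from 1.14 to 0.70 for the MAPK pathway activity genes, and with a filter at an FPKM of 5 from 0.50 to 1.05 for the EGR1 targets. In ES2 the median of the factors acting on immediate early promoters went from -0.19 to -0.02 with that filter and to -0.08 with the correction for GC content and length. That of the EGR1 targets went from 0.05 to 0.18 in ES2 with the same filter. In SKOV3 the MAPK pathway activity median was 1.42 after rescaling FPKM, and that of the other immediate early genes was 0.27 with no filter. Between the untreated lines, a pseudocount of 5 took the MAPK pathway activity median from -2.05 to -1.37 and the AP-1 target median from -1.22 to -0.99. Other list medians moved as well.

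Over all genes, counts past the size moved by more than 1.5 times with several settings, in the order ES2, SKOV3, difference between their ratios, untreated lines (103, 395, 635 and 1130 as reported). A pseudocount of 0.1 gave 300, 913, 1607 and 2583, and of 5 gave 21, 151, 178 and 285. Rescaling FPKM to a sum of 1000000, where the same pseudocount and filter weigh less because the values are larger, gave 878, 1863, 2979 and 2591, and scaled counts gave 166, 725, 1187 and 2274. A filter at an FPKM of 5 gave 33 in ES2 and 370 for the difference. A 1.5-fold size gave 394, 1672 and 2476 and a 3-fold size 28, 89 and 144 for the first 3, and 2-fold gave 4028 for the untreated lines. Rescaling FPKM moved the median of all genes by over 0.1 between the lines, to a log2 ratio of 0.21 for the untreated lines and 0.17 for the difference, against 0.07 and 0.06. Depth limits FOS, FOSB, EGR2 and EGR3, whose counts lay between 8 and 185.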
